A study of Mus musculus with 2 samples.

Results

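The miR-290 to miR-295 cluster is a group of microRNA (miRNA) hairpin genes on mouse chromosome 7. Its short fragments were taken from the small RNA reads of J1 mouse embryonic stem cells. A member sequence was any sequence of 15 to 17 nt that matched, exactly and over its full length, the sense strand of 1 of the 9 GENCODE hairpins Mir290a, Mir290b, Mir291a, Mir291b, Mir292, Mir292b, Mir293, Mir294 and Mir295. Of the 9, 7 had a read, among 336 miRNA genes with a read in these libraries. The cluster accounts for 86 of the 96471 distinct sequences of that length.

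J1 is a stem cell line of strain 129S4/SvJae, for which the labels give the inner cell mass as tissue of origin. Both groups grew on gelatin, and their medium held leukaemia inhibitory factor (LIF) at 1000 U/mL and Knockout Serum Replacement. The treated group received SB431542 at 3 µM for 24 h, and the control group the same volume of its solvent, DMSO, for 24 h. SB431542 inhibits ALK4, ALK5 and ALK7, the type I receptors for activin, TGF-beta and Nodal. The comparison addressed the effect of this inhibitor on small RNAs of the stem cells. Each group had 1 library of 1 cell line, so differences have no replicate check and no p-values, and the 95% intervals below cover counting error only. The reads analysed here are shorter than a mature miRNA, so the values are levels of fragments and not of full-length miRNAs, and markers of the cell type other than this cluster were not analysed here.

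A miRNA hairpin is cut by Drosha and Dicer into a duplex of a 5p arm and a 3p arm, and an Argonaute protein keeps 1 of the strands and finds its targets mainly through the seed, bases 2 to 8. The plus strand hairpins of the cluster come from 1 primary transcript, which is among the most active miRNA genes of mouse embryonic stem cells. Several of its 3p arms share the bases AAGUGC in the seed with the miR-302 and miR-17 families, and this group is known for promoting the rapid G1 to S transition of stem cells.

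The sequences below are those on which the results turn. The first 4 are the mature miRNAs from RefSeq (build GRCm38.p6, all on the plus strand) to which the described fragments belong, written 5′ to 3′ with the seed in capitals. Mature miR-293-3p lies at chr7:3220390-3220411, miR-292a-5p at chr7:3219200-3219221, miR-291a-5p at chr7:3218932-3218953 and miR-290a-5p at chr7:3218639-3218660.
miR-293-3p: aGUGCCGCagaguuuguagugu
miR-292a-5p: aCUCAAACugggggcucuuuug
miR-291a-5p: cAUCAAAGuggaggcccucucu
miR-290a-5p: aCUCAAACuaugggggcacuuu
The next sequences are the fragments with the most reads in each of these arms, as deposited, with T in place of U and the seed again in capitals.
miR-293-3p, 15 nt: aGTGCCGCagagttt
miR-293-3p, 16 nt: aGTGCCGCagagtttg
miR-293-3p, 17 nt: aGTGCCGCagagtttgt
miR-292-5p, 15 nt: aCTCAAACtgggggc
miR-292-5p, 16 nt: aCTCAAACtgggggct
miR-291a-5p, 16 nt: cATCAAAGtggaggcc
miR-291a-5p, 17 nt: cATCAAAGtggaggccc
miR-290a-5p, 17 nt: aCTCAAACtatgggggc
Each of them starts at the first base of its mature miRNA and stops before its last bases.

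The 9 hairpins span 2216 nt, chr7:3218626-3220841 in GRCm38. Of these, 7 are on the plus strand. Mir290b and Mir292b are on the minus strand, opposite Mir290a and Mir292. The annotation puts 7 of the hairpins, all but Mir290a and Mir290b, inside the untranslated part of the last exon of Nlrp12, a minus strand gene of the NOD-like receptor family, whose untranslated stretch covers chr7:3218784-3222475. Mir292b lies on the same strand as that exon and the other 6 lie opposite to it. RefSeq held 17 mature sequences for the 9 genes, and miR-292a-3p was not matched.

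The DMSO library held 990296 reads of 15 to 17 nt and the SB431542 library 517535, a ratio of 1.91. Reads assigned to miRNA hairpins numbered 77907 with DMSO and 21808 with SB431542, which is 7.87% and 4.21% of those reads. Because this share differed between the libraries, each level is given on 2 scales, per 15 to 17 nt reads and per miRNA reads. A hairpin without a read can lie at up to 3.03 reads per 1000000 reads of 15 to 17 nt with DMSO and 5.80 with SB431542, the level of 3 reads.

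With SB431542 the cluster made up a slightly smaller share of the miRNA reads, and a clearly smaller share of all 15 to 17 nt reads. It held 39534 reads with DMSO and 10514 with SB431542. Of the miRNA reads, these are 50.7% (95% Clopper-Pearson interval 50.4 to 51.1) and 48.2% (47.5 to 48.9), a log2 ratio of SB431542 over DMSO of -0.07 (-0.11 to -0.04). The cluster's own reads are part of the miRNA total, so this ratio is not a comparison with the other miRNAs alone. With the 5 arms with the most reads left out of the total, it was -0.25. Scaled by factors over the miRNA arms, those with few reads included, it was -0.35 with edgeR's TMM and -0.33 with DESeq2's size factors. Its size therefore depends on the scaling. DESeq2's factors use only the arms with a read in both libraries. Of all 15 to 17 nt reads, the cluster's reads are 3.99% (3.95 to 4.03) and 2.03% (1.99 to 2.07), a log2 ratio of -0.97 (-1.01 to -0.94). The GC content of the libraries differed too. The mean GC content of all 15 to 17 nt reads was 60.7% in the DMSO library and 64.2% in the SB431542 library, whereas that of the cluster's reads was 54.7% in both. Sequences outside miRNA hairpins with 50% to 60% GC and at least 20 reads, 1089 in number, had a median log2 ratio of -0.23 per 15 to 17 nt reads (quartiles -0.78 and 0.29). After each SB431542 count had been divided by the median ratio of its GC class, the cluster's log2 ratio per 15 to 17 nt reads was -0.75. A part of GC content in the difference was not tested, and with 1 library per group it cannot be told apart from the treatment.

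A single arm, miR-293-3p, supplied nearly all of the cluster's fragments. It had 38924 reads with DMSO and 10359 with SB431542, which is 98.5% of the cluster's reads in each library. These are 63.8 and 66.8 times the reads of all other arms of the cluster together. It was the most abundant arm of both libraries, ahead of miR-25-3p with 10362 and 2954 reads, miR-382-5p with 8538 and 2667, and miR-409-3p with 7531 and 1978. Without Mir293, the cluster held 597 reads with DMSO and 150 with SB431542, and its log2 ratio was -1.05 (-1.32 to -0.80) per 15 to 17 nt reads and -0.15 (-0.42 to 0.10) per miRNA reads. The intervals of these values and of those for the whole cluster overlap on both scales.

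The hairpins other than Mir293 were sparse. Per 1000000 reads of 15 to 17 nt in the DMSO library, Mir293 stood at 39319 (95% Poisson interval 38929 to 39711), Mir291a at 222 (193 to 253), Mir292 at 203 (176 to 233), Mir290a at 70.7 (55.1 to 89.3), Mir294 at 41.4 (29.7 to 56.2), Mir291b at 35.8 (25.04 to 49.74) and Mir295 at 30.3 (20.4 to 43.2). In that order, only the steps from Mir293 to Mir291a and from Mir292 to Mir290a exceed the counting intervals. In the SB431542 library Mir293 stood at 20026 (19642 to 20415), Mir292 at 124 (95.2 to 158), Mir291a at 72.5 (51.1 to 99.7), Mir290a at 40.6 (25.1 to 62.0), Mir291b at 24.2 (12.7 to 41.7), Mir295 at 19.3 (9.27 to 35.5) and Mir294 at 9.66 (3.14 to 22.5). Only the step from Mir293 to Mir292 exceeds the intervals between neighbours there, and Mir291a and Mir292 stand in the opposite order. Mir290b and Mir292b had 0 sense reads in both libraries. The sequences that match them in antisense were sense reads of Mir290a (70 and 21 reads) and Mir292 (201 and 64 reads), and 0 other antisense reads fell on any of the 9 hairpins.

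**Figure D1:**
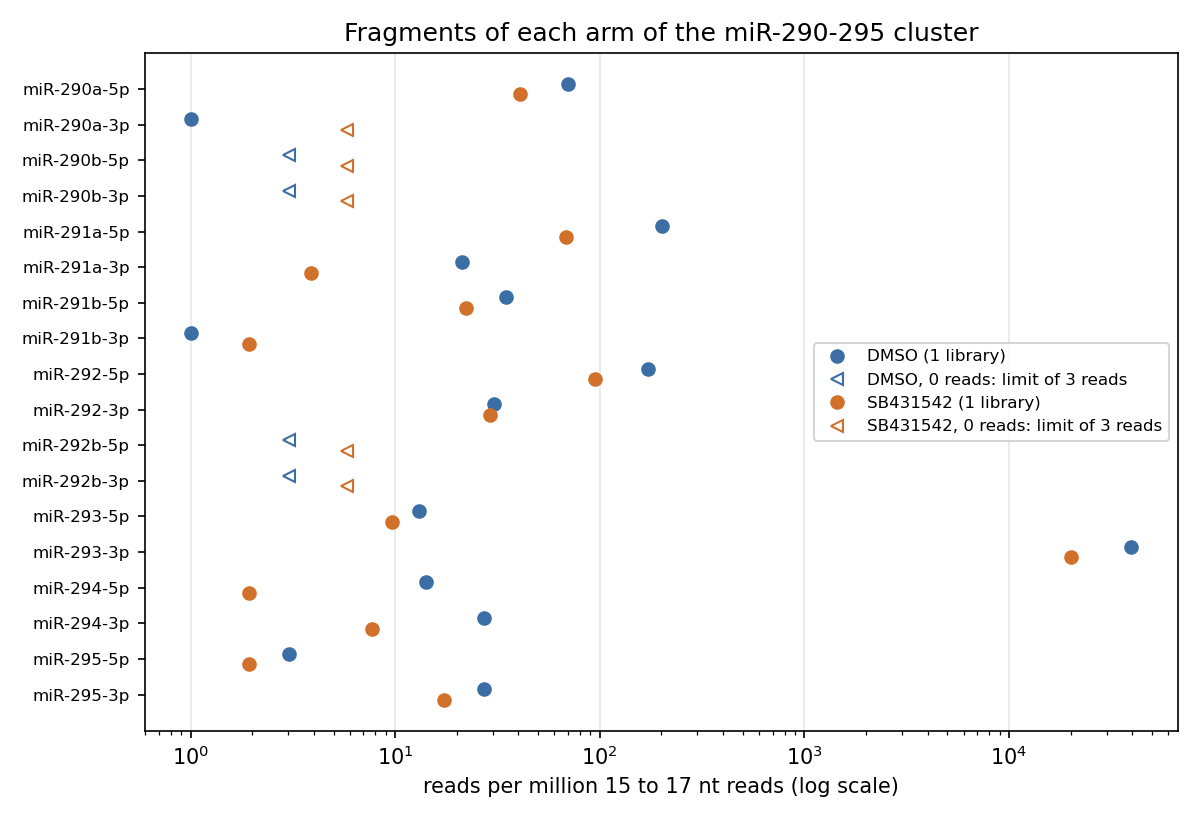
Reads of each of the 18 arms of the cluster per 1000000 reads of 15 to 17 nt (log scale), 1 point per library, with open triangles at the level of 3 reads for arms without a read. The 2 points of miR-293-3p stand far to the right of all others. In 12 of the 13 arms with a read in both libraries the SB431542 point lies left of the DMSO point. The exception, miR-291b-3p, has 1 read in each library. Among all miRNAs, 40 of the 43 arms with at least 50 reads were also lower with SB431542 on this scale.

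Reads came from the 5p arm in some hairpins and from the 3p arm in others. In Mir293 the 3p arm held 38924 of 38937 reads with DMSO and 10359 of 10364 with SB431542. Mir294 and Mir295 also had most reads on the 3p arm, with 27 of 41 and 27 of 30 reads in the DMSO library and 4 of 5 and 9 of 10 in the SB431542 library. The other hairpins had most reads on the 5p arm. For Mir290a, 69 of 70 DMSO reads and 21 of 21 SB431542 reads were on the 5p arm, and for Mir291b 34.5 of 35.5 and 11.5 of 12.5. Mir291a had 198.5 reads on the 5p arm and 21 on the 3p arm with DMSO, and 35.5 and 2 with SB431542. Mir292 had 171 and 30 with DMSO, and 49 and 15 with SB431542. Sequences shared by Mir291a and Mir291b were divided equally between them, hence the fractions. There were 5 such sequences, with 25 and 9 reads. Over the members other than Mir293, the 3p arms held 17.9% (14.9 to 21.2) of the reads with DMSO and 20.7% (14.5 to 28.0) with SB431542, so the balance of the arms differed by less than the counting intervals. With Mir293 the shares are 98.7% and 98.8%.

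Of the 18 arms of the cluster, 14 had a read and 4 (miR-293-3p, miR-291a-5p, miR-292-5p and miR-290a-5p) had the 50 reads over both libraries that were asked for a ratio. All 4 were lower per 15 to 17 nt reads in the SB431542 library, as were 40 of the 43 arms that had 50 reads among all miRNAs. For miR-293-3p the log2 ratio was -0.97 (-1.005 to -0.942) per 15 to 17 nt reads and -0.07 (-0.10 to -0.04) per miRNA reads. For miR-292-5p, with 171 and 49 reads, it was -0.86 (-1.36 to -0.40) and 0.04 (-0.46 to 0.50). For miR-290a-5p, with 69 and 21 reads, it was -0.76 (-1.56 to -0.06) and 0.14 (-0.66 to 0.84). On the miRNA scale the intervals of miR-292-5p and miR-290a-5p include 0.

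The lowest ratio of the 4 belonged to miR-291a-5p, with 198.5 reads against 35.5. Its log2 ratio was -1.53 (-2.08 to -1.01) per 15 to 17 nt reads and -0.63 (-1.18 to -0.10) per miRNA reads, rank 39 of 43 from the highest. The other 3 stood at ranks 21 (miR-290a-5p), 23 (miR-292-5p) and 27 (miR-293-3p). The interval of miR-291a-5p overlaps those of miR-292-5p and miR-290a-5p and meets that of miR-293-3p at its edge without overlapping it. Ranks and overlaps are the same on the 2 scales by construction. At a 2-fold limit and per 15 to 17 nt reads, miR-291a-5p alone of the 4 was at least 2-fold lower, where 34.9% of the 43 arms were, and 0 of the 4 were at least 2-fold higher, where 0% of the 43 arms were. Per miRNA reads 0 of the 4 passed that limit in either direction, where 6.98% of the arms were at least 2-fold higher and 4.65% at least 2-fold lower. The median log2 ratio of the 4 was -0.92 per 15 to 17 nt reads and -0.01 per miRNA reads, and that of all 43 arms was -0.77 and 0.13.

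**Figure D2:**
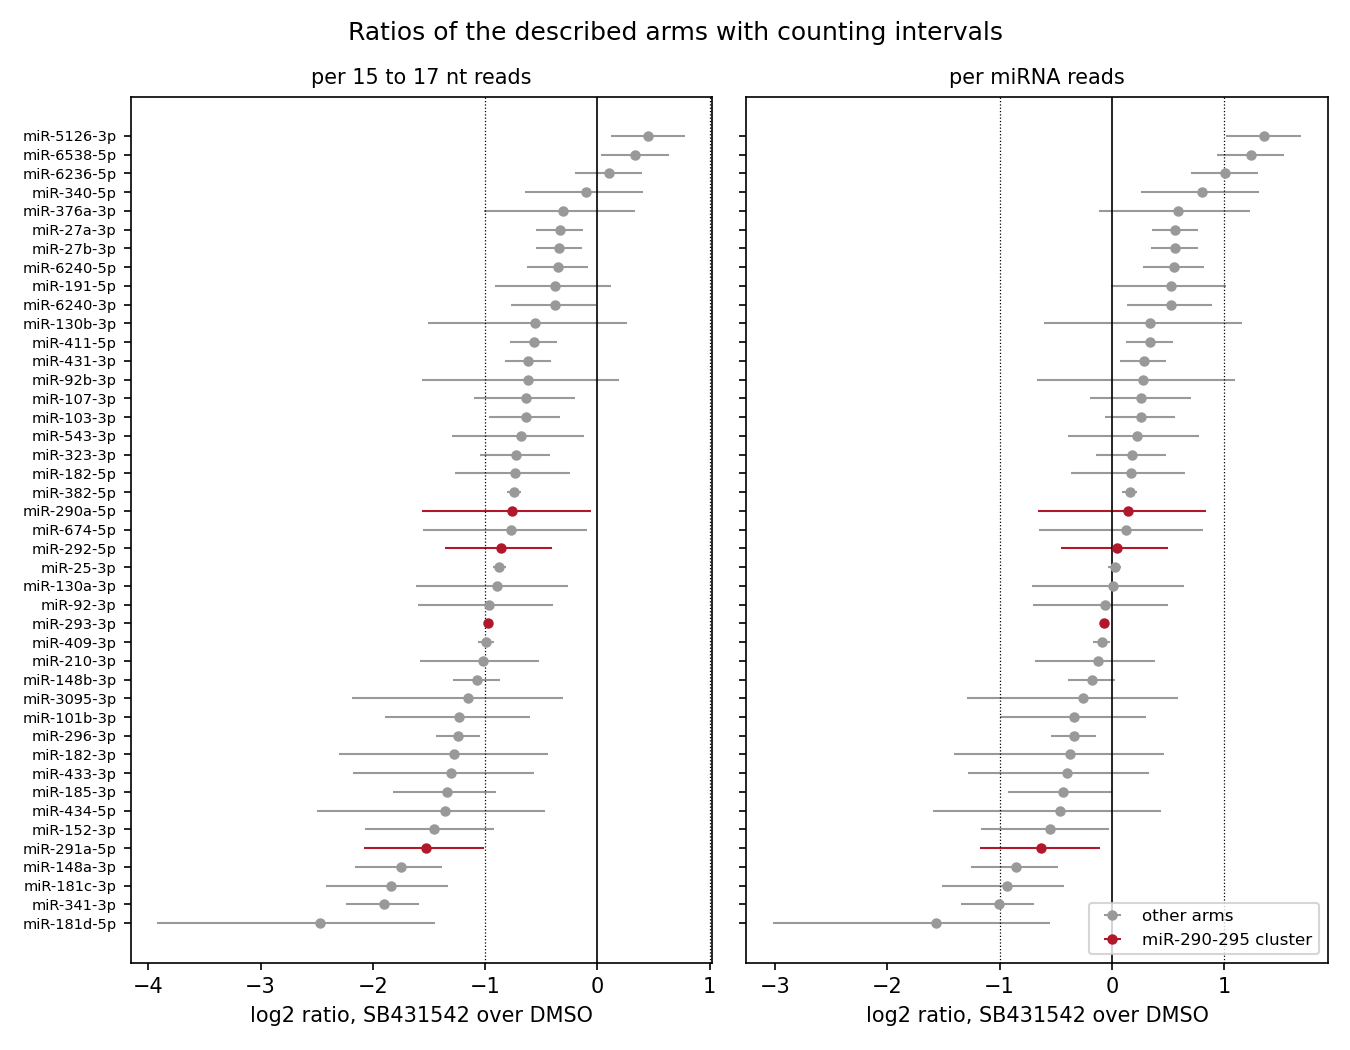
Log2 ratio of SB431542 over DMSO for the 43 arms with at least 50 reads, per 15 to 17 nt reads on the left and per miRNA reads on the right, with bars for the 95% counting interval and dotted lines at a 2-fold difference. The 4 cluster arms, in red, lie within the range of the other arms, miR-293-3p near the middle and miR-291a-5p among the 5 lowest.

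The other 10 arms with a read are given by their reads alone. On the 5p side, miR-291b-5p had 34.5 reads with DMSO and 11.5 with SB431542, miR-294-5p 14 and 1, miR-293-5p 13 and 5, and miR-295-5p 3 and 1. On the 3p side, miR-292-3p had 30 and 15 reads, miR-294-3p 27 and 4, miR-295-3p 27 and 9, miR-291a-3p 21 and 2, miR-290a-3p 1 and 0, and miR-291b-3p 1 and 1. Both miR-291b-3p reads lie mostly before the mature miRNA, so that arm has a read only by the midpoint rule used here. The same holds for 3 of the miR-291a-3p reads with DMSO and 2 of the miR-295-3p reads with SB431542. Nearly all miR-292-3p reads were a single sequence of 17 nt, aagtgccgccaggtttt, with 29 reads against 13.

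The arms were also grouped by the seed of their mature miRNA. The AAGUGCU seed is shared by miR-291a-3p, miR-294-3p and miR-295-3p, the arms best known for the cell cycle role of the cluster, whose mature sequences are as follows.
miR-291a-3p: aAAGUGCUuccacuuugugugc
miR-294-3p: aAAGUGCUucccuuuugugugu
miR-295-3p: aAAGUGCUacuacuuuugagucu
These 3 arms together gave 75 reads with DMSO and 15 with SB431542, of which 59 and 9 start at the first mature base and so have that seed as their own bases 2 to 8. Included are 3 reads of miR-291a-3p with DMSO and 2 of miR-295-3p with SB431542 that lie mostly before the mature miRNA. The sums of 3p arms below hold these reads and the 1 and 1 reads of miR-291b-3p, which lie there too. The arms of the CUCAAAC seed, miR-290a-5p, miR-292a-5p and miR-293-5p, gave 253 and 75 reads, and 212 and 58 of them have the seed in place. For the AUCAAAG seed of miR-291a-5p and miR-291b-5p the reads were 233 and 47, with 192 and 37 in place. Among the matched mature sequences the GUGCCGC seed belongs to miR-293-3p alone, with 38924 and 10359 reads, and fragments with GTGCCGC as bases 2 to 8 numbered 38747 and 10324 in the cluster. Fragments with AAGTGC within bases 2 to 8 numbered 79 and 10. Those from miR-293-3p and miR-292-3p are included in that count. The 6 arms on the 3p side other than miR-293-3p together had 107 reads against 31, a log2 ratio of -0.83 (-1.48 to -0.26) per 15 to 17 nt reads and 0.07 (-0.58 to 0.64) per miRNA reads. Without miR-292-3p, for which no mature sequence was matched, the other 5 had 77 against 16, and the ratio was -1.30 (-2.21 to -0.54) and -0.39 (-1.31 to 0.36), so the direction per miRNA reads turned with that arm. The 10 hairpins outside the cluster that carry this seed (Mir302a to Mir302d, Mir17, Mir20a, Mir20b, Mir93, Mir106a and Mir106b) had 30 reads against 7 over both arms, from 6 of the 10, with a log2 ratio of -1.09 (-2.59 to 0.05) and -0.19 (-1.69 to 0.95). None of their arms reached 50 reads, and the interval of each of these 3 sums on the miRNA scale includes 0.

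The fragments of miR-293-3p had a near uniform 5′ end and, within the length limits, a 3′ end that varied. They started at base 48 of the hairpin, the first base of the mature miRNA, in 99.5% of reads with DMSO (95% interval 99.47 to 99.61) and 99.7% with SB431542 (99.52 to 99.76). A start 1 base earlier was seen in 132 and 32 reads, 2 bases earlier in 19 and 0, and 1 base later in 27 and 4. Since the seed is counted from the 5′ end, bases 2 to 8 of these fragments read AGTGCCG and AAGTGCC for the earlier starts, against GTGCCGC for the main one. At the other end, 0 reads reached the last base of the mature miRNA, which the 17 nt limit does not allow for the main start.

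**Figure D3:**
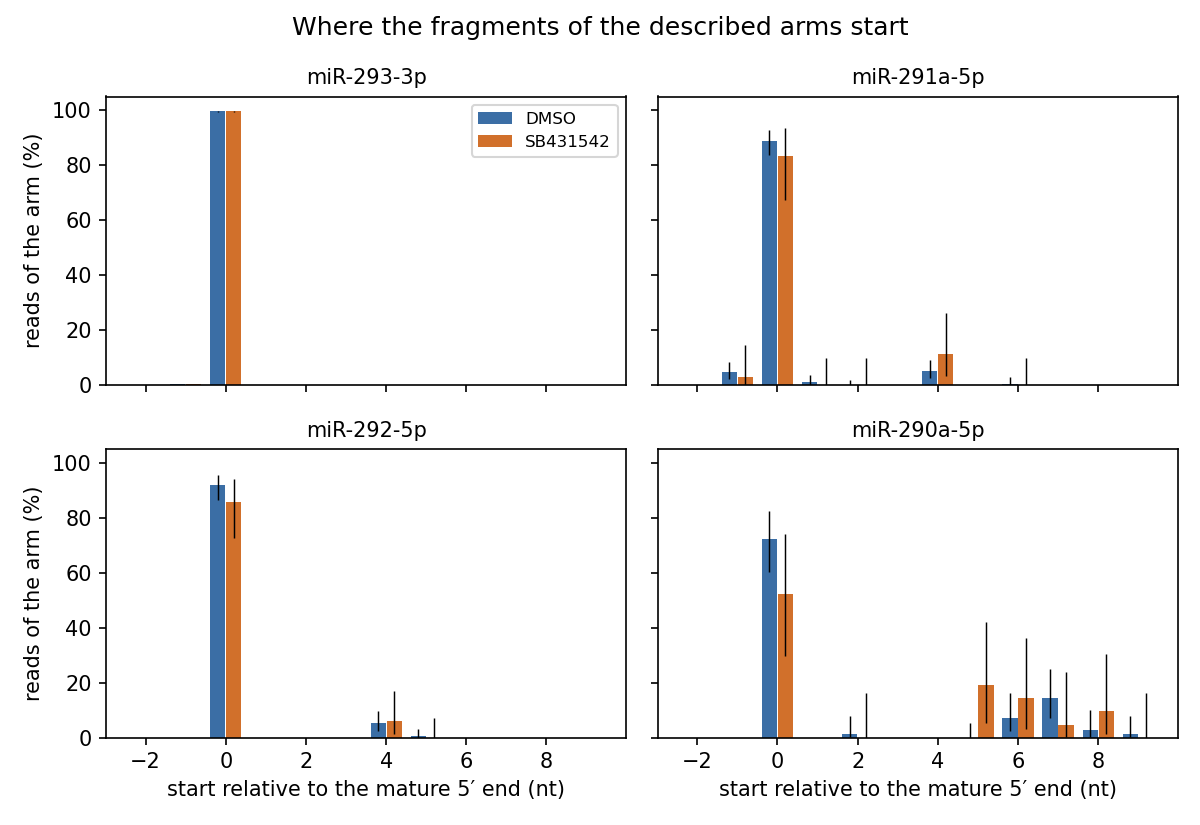
Share of the reads of each of the 4 arms that start at a given distance from the first base of the mature miRNA, with bars per library and lines for the 95% Clopper-Pearson interval. Fragments start mainly at distance 0 in all 4 panels. Further starts lie 5 to 9 bases downstream in miR-290a-5p and, with smaller shares, mainly 4 bases downstream in miR-291a-5p and miR-292-5p. The miR-292-5p reads that start 21 and 22 bases downstream are not drawn.

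The 3 lengths of miR-293-3p occurred in almost the same proportions in both libraries. The 15 nt fragment had 11826 reads with DMSO and 3030 with SB431542, the 16 nt fragment 19490 and 5196, and the 17 nt fragment 7430 and 2097. Of all miR-293-3p reads, 30.4% were 15 nt, 50.2% were 16 nt and 19.4% were 17 nt with DMSO, and 29.3%, 50.3% and 20.4% with SB431542. The counting intervals of the 2 libraries overlap for 15 nt (29.96 to 30.88 against 28.40 to 30.17) and for 16 nt, and just for 17 nt (18.99 to 19.78 against 19.66 to 21.23). The log2 ratios per 15 to 17 nt reads were -1.03 (-1.09 to -0.97), -0.97 (-1.02 to -0.93) and -0.89 (-0.96 to -0.82) from the shortest to the longest. Those of the 15 nt and the 17 nt fragment do not overlap.

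The preference for 16 nt was not that of the libraries, in which 17 nt was the commonest length. Among all reads, 20.1% were 15 nt, 30.5% were 16 nt and 49.5% were 17 nt with DMSO, and 20.5%, 30.4% and 49.1% with SB431542. Each abundant arm had its own profile. With DMSO, 85.6% of miR-25-3p reads were 15 nt, 65.3% of miR-382-5p reads were 16 nt, and miR-409-3p was divided between 16 nt (44.5%) and 17 nt (40.2%). With SB431542 these shares were 86.2%, 66.3%, 43.5% and 43.6%. Of these 4 shares, only the 17 nt share of miR-409-3p had intervals that do not overlap (39.14 to 41.36 against 41.38 to 45.80). Within the cluster, miR-292-5p was mostly 15 nt, in 74.3% of reads with DMSO (67.0 to 80.6) and 67.3% with SB431542 (52.5 to 80.1). Fragments of miR-291a-5p were most often 17 nt, in 57.1% (49.9 to 64.1) and 47.2% (30.4 to 64.5), as were those of miR-290a-5p, in 55.1% (42.6 to 67.1) and 66.7% (43.0 to 85.4). The intervals of the 2 libraries overlap for each of these 3 arms.

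**Figure D4:**
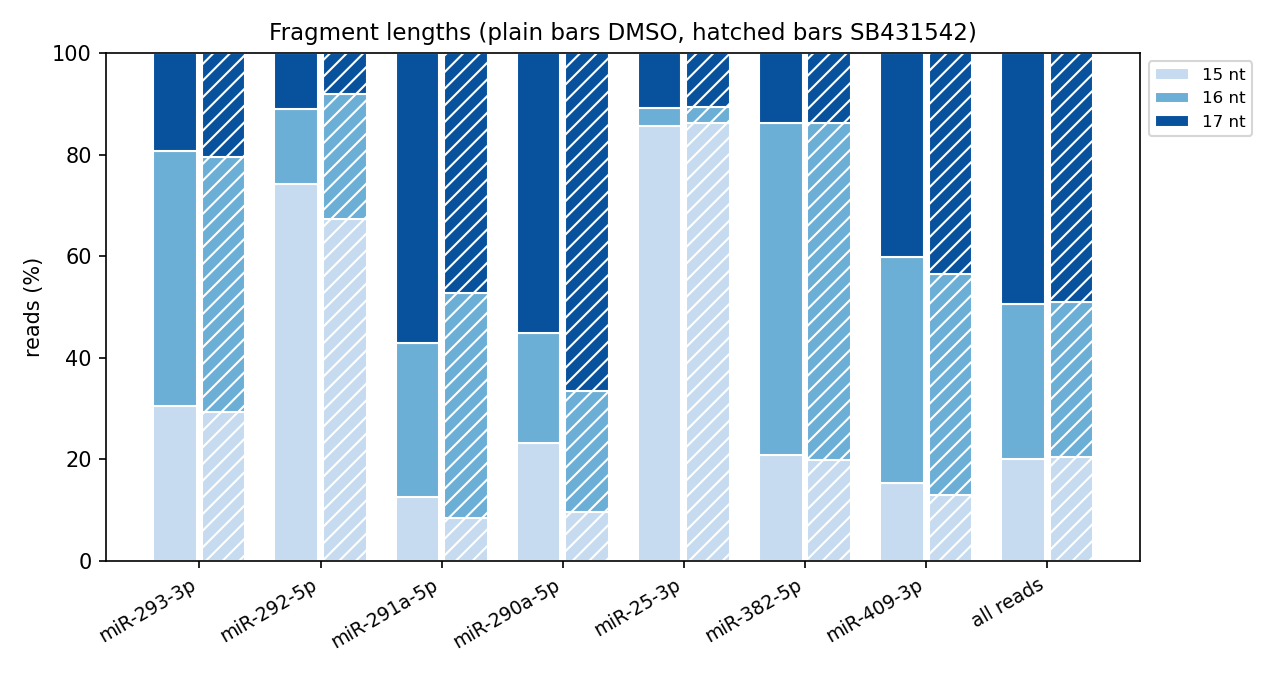
Share of 15, 16 and 17 nt reads in the 4 cluster arms, in the other 3 most abundant arms and in all 15 to 17 nt reads, with plain bars for DMSO and hatched bars for SB431542. The bars differ between arms, from mostly 15 nt in miR-25-3p and miR-292-5p to mostly 16 nt in miR-382-5p and mostly 17 nt in miR-290a-5p. Between the 2 libraries they differ most in miR-290a-5p and miR-291a-5p, which have few reads and overlapping counting intervals.

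The leading fragments of miR-292-5p, miR-291a-5p and miR-290a-5p all end in C. In miR-292-5p the 15 nt fragment aCTCAAACtgggggc had 126 reads with DMSO and 33 with SB431542, and the 16 nt fragment aCTCAAACtgggggct 22 and 9. In miR-291a-5p the 17 nt fragment cATCAAAGtggaggccc had 96 and 15 reads, the 16 nt fragment 55 and 12, and the 15 nt fragment 25 and 3. In miR-290a-5p the 17 nt fragment aCTCAAACtatgggggc had 33 and 7 reads, against 10 and 1 for 15 nt and 7 and 3 for 16 nt. Of the reads from 5p arms that start within 2 bases of the mature 5′ end, 393 of 439 (89.5%, 86.3 to 92.2) ended in C with DMSO and 82 of 98 (83.7%, 74.8 to 90.4) with SB431542, whereas 15.2% and 15.4% of all 15 to 17 nt reads did. The hairpins limit this choice. For fragments that start at the first mature base, miR-291a-5p, miR-291b-5p and miR-294-5p have C at all 3 lengths. In the 3 arms that offer C and another base (miR-290a-5p, miR-292-5p and miR-293-5p), 172 of 212 reads (81.1%, 75.2 to 86.2) ended in C with DMSO and 42 of 58 (72.4%, 59.1 to 83.3) with SB431542. In miR-290a-5p the C is the 17 nt end, in 33 of 50 and 7 of 11 reads. In miR-292-5p it is the 15 nt or the 17 nt end, in 135 of 157 and 33 of 42 reads. The 17 nt end had only 9 and 0 of these, fewer than the 22 and 9 reads of the 16 nt end, a T. Since miR-292-5p gave 157 of the 212 and 42 of the 58 reads, the pooled share ending in C rests mostly on its 15 nt fragment. In miR-293-5p the C is the 16 nt end, in 4 of 5 and 2 of 5 reads. The fragment of that arm with the most reads starts further inside and ends in T.

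A smaller set of fragments ends within 2 bases of the other end of the mature miRNA. The fragments with the most reads of this kind in 4 arms, of which miR-291a-5p and miR-291b-5p share 1 sequence, are shown with the bases left from the seed in capitals.
miR-291a-5p and miR-291b-5p: AAAGtggaggccctctc
miR-292-5p: AAACtgggggctctttt
miR-293-5p: AAACtgtgtgacatttt
All start 4 bases inside the mature miRNA and stop 1 base before its 3′ end. The first had 14 reads with DMSO and 4 with SB431542, the second 9 and 3, and the third 7 and 0. In miR-290a-5p such fragments started 5 to 9 bases inside, and those within 2 bases of the mature 3′ end were 18 of 69 reads with DMSO (26.1%, 16.3 to 38.1) and 10 of 21 with SB431542 (47.6%, 25.7 to 70.2), with overlapping intervals. Over all arms other than miR-293-3p, 510 of 610 reads (83.6%, 80.4 to 86.5) started within 2 bases of the mature 5′ end with DMSO and 110 of 155 (71.0%, 63.1 to 78.0) with SB431542. Those that ended within 2 bases of the mature 3′ end were 59 (9.67%, 7.44 to 12.3) and 22 (14.2%, 9.11 to 20.7). The intervals of the first pair of shares do not overlap, whereas those of the second do. The miR-292-3p reads, 30 and 15, count in neither class, since the mature position of that arm was not used here. Without them the shares at the mature 5′ end are 510 of 580 (87.9%, 85.00 to 90.47) and 110 of 140 (78.6%, 70.84 to 85.05), and their intervals overlap at the edge. Reads outside or across a mature end numbered 9 with DMSO and 7 with SB431542, of which the loop of Mir292 gave 4 in each library.

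The variety of the cluster's fragments followed its number of reads. There were 78 distinct sequences with DMSO and 50 with SB431542, and 42 were found in both. At 10514 cluster reads, the number of the SB431542 library, the DMSO library would hold 49.1 distinct sequences on average by exact rarefaction of its counts. Of the 86 sequences, 12 also occur in another annotated gene (at most 2 of them), and these held 104 reads with DMSO and 23 with SB431542, so reads from those genes cannot be told apart from the cluster's.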

How the data were processed

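The deposited files list each distinct sequence with its length and its raw read count, not normalized. Per the labels, libraries were made from TRIzol total RNA with an Illumina TruSeq RNA kit. For size selection, adapter trimming and alignment the sources used here give nothing. The submitters' processing notes name mm9, and none of their coordinates was used.

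Sequences of 15 to 17 nt were matched exactly, over their full length and on both strands, to GENCODE M21 transcripts (GRCm38). A miRNA was a GENCODE miRNA gene named Mir. Sequences found in several miRNA genes were divided equally, and those matching over 5 other genes, or a small RNA of another class, were set aside, which took 0 of the cluster's sequences. The arm was set by the side of the hairpin middle on which the sequence's midpoint fell. Copies of 1 miRNA were merged. Several readings of the rule on other genes were tried, and the one kept gave the miRNA totals of an earlier account of these data.

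Log2 ratios used a pseudocount of 0.5 read and exact conditional binomial (Clopper-Pearson) 95% intervals. Levels of hairpins have exact Poisson intervals. The reads carry no molecular identifiers and are not independent molecules, so intervals cover counting error only. No test was made, with 1 library per group. All 9 hairpins were reported, arms with at least 50 reads with a ratio, and up to 3 sequences for each of these, with the other 3 most abundant arms for position and length and the AAGUGC relatives by their sums. The members and lists were chosen with earlier results of these data known. The classes within 2 nt of a mature end, the fragments 4 bases inside, the last bases, the seeds of single fragments, the sum of the 3p arms, the 1-base variants, the rarefaction, the 14 nt fragments and the GC correction were chosen after the fragments had been seen.

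In simulated data, 18 of 18 arm places were recovered, the interval held the ratio for 40 of 43 arms, and 28 of 28 arms changed 4-fold and 0 of 15 unchanged arms were called at least 2-fold. These values cover counting error only. The scripts ran in Python 3.11.15 (scipy 1.17.1, numpy 2.4.6, matplotlib 3.10.9 and pandas 2.3.3). Alternative scaling factors came from R 4.3.3 with edgeR 4.0.16 and DESeq2 1.42.0.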

Additional observations from a re-analysis of the deposited data

Results flagged for a closer look

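Sequences that differ by 1 base from the 3 main miR-293-3p fragments lie outside the exact matches used above, and their share was higher in the SB431542 library than in the control. They numbered 75 reads with SB431542, 0.721% of exact and 1-base reads (95% Clopper-Pearson interval 0.568 to 0.903), and 263 reads with DMSO, 0.674% (0.595 to 0.760). The intervals overlap. By length, the share was higher with SB431542 for the 16 nt fragment (0.802% against 0.546%) and the 15 nt fragment (0.721% against 0.655%) and lower for the 17 nt fragment (0.522% against 1.04%). For the leading fragment of miR-25-3p the shares were 0.624% with SB431542 and 0.560% with DMSO. Those of miR-382-5p were 0.630% and 0.596%, and those of miR-409-3p 0.994% and 0.985%. A slightly higher share with SB431542 was thus not particular to miR-293-3p, and the intervals overlap for each of these arms. Counting positions from 1 at the 5′ end of the fragment, the change with the most reads was T17A of the 17 nt fragment, with 20 reads in the DMSO library and 1 in the SB431542 library.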

How the results depend on the processing

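Of 88 values recomputed under alternatives, 59 stayed within the counting interval of the reported value and 29 moved outside it. Of the log2 ratios among them 0 changed sign, whereas the shares and mean lengths cannot change sign. Setting no sequence aside could not change the cluster's own counts, since 0 of its sequences had been set aside. Per 15 to 17 nt reads, the cluster's log2 ratio was -0.94 from 16 nt, -0.89 from 17 nt and -0.75 with the GC correction, and that of miR-293-3p -0.89 from 17 nt and -0.75 with the GC correction. Per miRNA reads, the cluster stood at -0.33 with DESeq2 size factors, -0.35 with edgeR TMM factors, -0.25 when the 5 arms with the most reads were left out of the total, -0.15 with no sequence set aside and -0.13 with the GC correction. miR-293-3p stood at -0.32, -0.35, -0.25, -0.15 and -0.13 under the same alternatives. The size of its difference on the miRNA scale therefore depends on the scaling.

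The 3p share of the cluster with DMSO was 98.8% from 16 nt and 97.4% from 17 nt, and 97.9% from 17 nt with SB431542. The miR-293-3p share of the cluster from 17 nt was 96.5% with DMSO and 97.0% with SB431542. Its share at the commonest start was 99.4% from 16 nt and 98.5% from 17 nt with DMSO, and 99.1% from 17 nt with SB431542. The mean length of cluster reads, 15.89 nt with DMSO and 15.91 nt with SB431542, was 15.84 and 15.87 nt from 14 nt, 16.28 and 16.29 nt from 16 nt, and 17 nt in both from 17 nt, which the length limits themselves set. The 14 nt limit and the GC correction were added after the data had been seen.

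No paired analysis was possible because each group had 1 library. Arms under 50 reads are too shallow for a ratio, and full-length miRNAs and spread between cultures were not analysed here.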

Other observations

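At 14 nt, below the lengths used above, miR-293-3p had 1084 reads with DMSO and 256 with SB431542, which is 0.970% and 0.390% of the 14 nt reads. Of these, 1077 and 255 were the sequence AGTGCCGCAGAGTT, which starts at the first base of the mature miRNA. The other arms of the cluster together had 36 and 6 reads of 14 nt.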
